A study of Homo sapiens with 20 samples.

Results

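The nuclear-encoded subunits of the mitochondrial respiratory chain were described in xenograft tumors of 2 rhabdomyosarcoma cell lines. Members were the protein-coding genes of the deposited count table whose symbols name subunits of complex I (NDUFA, NDUFB, NDUFC, NDUFS and NDUFV genes with a number), complex II (SDHA to SDHD), complex III (UQCR genes), complex IV (COX4 to COX8 genes) and complex V, the ATP synthase (ATP5 genes). The rule used names only and found 90 genes among the 44294 genes with a value. They comprise 37 genes of complex I, 4 of complex II, 9 of complex III, 19 of complex IV and 21 of complex V. Despite their symbols, NDUFA4 and NDUFA4L2 are counted with complex IV, as a general subunit and a restricted isoform, and not with complex I. A further 118 rows with matching names were of another biotype and were left out. The rule does not take in NDUFAB1, CYC1 or CYCS (the acyl carrier protein of complex I, cytochrome c1 and cytochrome c).

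RNA from 20 tumors was sequenced, in 4 groups of 5 libraries: RD labelled TLE3 knockout, RD non-targeting control, SJRH30 labelled TLE3 knockout and SJRH30 non-targeting control. RD is a line of embryonal and SJRH30 a line of alveolar rhabdomyosarcoma, a tumor with features of immature skeletal muscle, and TLE3 is a Groucho-family transcriptional corepressor. Cells of each kind were grafted into NOD/SCID mice, which lack mature T and B cells but keep macrophages, vessels and fibroblasts. Tumors of all groups were taken at the point when control tumors had grown to the permitted limit. The labels name no guide, clone or day and do not tell whether each tumor grew in its own mouse. The p-values therefore measure only the spread between these libraries.

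The knockout is known from the labels. TLE3 had 1465, 1357, 1032, 1547 and 424 normalized counts in the RD libraries labelled knockout, against 1345, 1810, 2622, 1270 and 1809 in RD controls. It had 967, 806, 582, 637 and 809 normalized counts in the SJRH30 libraries labelled knockout, against 426, 638, 185, 597 and 407 in SJRH30 controls. The TLE3 transcript was thus not lower in the SJRH30 libraries labelled knockout, and its log2 fold change did not pass the test in RD (-0.69 ± 0.34 SE, limma adjusted p = 0.605) or in SJRH30 (0.85 ± 0.37, adjusted p = 0.557). Counts per gene do not check the loss of a protein, and every direction given for a knockout below is that of libraries so labelled.

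The respiratory chain passes electrons from NADH (complex I) or succinate (complex II) through complex III and cytochrome c to oxygen at complex IV, pumping protons across the inner mitochondrial membrane, and complex V uses the proton gradient to make ATP. A small set of subunits is encoded by mitochondrial DNA and all others by nuclear genes, many of which carry binding sites for NRF1, for GABPA and other ETS factors, or for YY1 in their promoters. Several complex IV subunits exist as a general form and a tissue-restricted form: COX6A2 and COX7A1 are the forms of heart and skeletal muscle, COX4I2 is a lung and hypoxia form, and COX7B2, COX6B2 and COX8C are known from testis. Skeletal muscle raises its respiratory capacity as it differentiates.

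A pair of features of the libraries bears on every value below. RD labelled knockout 5 and SJRH30 control 3 are shallow: their deposited totals of 47.6 and 23.3 M normalized counts rest on 9.65 and 2.14 M reads, whereas the 18 other libraries have totals of 26.1 to 60.7 M. Genes encoded by mitochondrial DNA took 32.4% and 20.4% of these 2 libraries and 16.9% of SJRH30 labelled knockout 4, against 2.34% to 8.69% in the rest. The authors' own mean over libraries gives the shallow pair a weight of about 0. Each comparison is therefore given with all libraries and again without the shallow pair. Human and mouse cells of a tumor were sequenced together, and fewer cells of a type cannot be told apart from less RNA per cell in such bulk samples.

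The members were abundant. A value of at least 1 was present in all 20 libraries for 85 of the 90 members, 85 had a mean of at least 100 normalized counts, and all 90 were tested in every comparison. Per kilobase of annotated exon, NDUFB7 (13801 normalized counts per kb), NDUFS5 (12822) and COX8A (7566) had the highest mean levels, all small accessory subunits, and COX8C had one of the lowest. Some rows cannot be separated by sequence. The read-through genes NDUFC2-KCTD14 and ATP5MF-PTCD1 had 100.6% to 125% and 108% to 167% of the counts of NDUFC2 and ATP5MF, which they overlap, so each pair is in effect 1 measurement. UQCRHL, an intronless copy of UQCRH, had 2.57% to 39.6% of its counts, and ATP5EP2, a copy of ATP5F1E, had 0.406% to 16.1%. Rows of 115 pseudogenes with matching names summed to 0.519% to 9.74% of the members' counts.

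RefSeq promoter windows were used to show what regulatory sequence the members carry. Of the 90 symbols 68 matched, with 81 windows of 300 bases, each from 250 bases before to 50 bases after a transcription start (GRCh38.p14). The NRF1 motif GCGCANGCG stood, on either strand, in 27.2% of the members' windows and in 7.52% of all 35116 windows of that length. The ETS and GABPA motif CCGGAAGT stood in 13.6% of the members' windows and 4.14% of all, and the YY1 motif AAGATGGC in 16% and 2.89%. The E-box CANNTG, the core motif bound by myogenic basic helix-loop-helix factors, stood in 63% of the members' windows and in 68.7% of all. Each motif was searched on its own, so overlapping matches count for each, and a match is a description of letters, not of binding. The windows below belong to members on which the results turn, and the capitals mark the motif named for each.

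COX6A2 and COX6A1 are shown together because they encode the muscle and the general form of the same complex IV subunit. The COX6A2 window (chr16:31428311-31428610, minus strand) holds 2 E-boxes, in capitals, and the COX6A1 window (chr12:120437863-120438162, plus strand) holds none. E-boxes do not set general forms apart: the windows of COX7A2, the general form paired with COX7A1, hold 4 and 1. COX7A1 itself had no window. The COX6A1 window also holds 1 NRF1 motif, which is not in capitals.
COX6A2: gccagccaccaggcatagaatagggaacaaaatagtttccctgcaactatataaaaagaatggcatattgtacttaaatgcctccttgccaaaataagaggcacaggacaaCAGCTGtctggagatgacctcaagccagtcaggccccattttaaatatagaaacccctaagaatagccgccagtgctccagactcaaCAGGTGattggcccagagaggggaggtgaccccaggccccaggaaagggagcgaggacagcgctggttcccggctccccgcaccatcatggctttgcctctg
COX6A1: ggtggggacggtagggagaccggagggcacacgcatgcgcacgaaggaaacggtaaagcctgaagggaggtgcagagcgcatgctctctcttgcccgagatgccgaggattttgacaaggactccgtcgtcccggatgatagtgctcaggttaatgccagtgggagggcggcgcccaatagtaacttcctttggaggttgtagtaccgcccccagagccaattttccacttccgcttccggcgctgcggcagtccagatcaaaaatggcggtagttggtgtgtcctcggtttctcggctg
NDUFB4 and UQCRFS1 are shown for the NRF1 motif: the NDUFB4 window (chr3:120596086-120596385, plus strand) holds 3 stretches with it, the first of which reads as the motif on both strands, and the UQCRFS1 window (chr19:29213102-29213401, minus strand) holds 1, all in capitals. NDUFB4 is an accessory subunit of complex I and UQCRFS1 is the Rieske iron-sulfur protein of complex III.
NDUFB4: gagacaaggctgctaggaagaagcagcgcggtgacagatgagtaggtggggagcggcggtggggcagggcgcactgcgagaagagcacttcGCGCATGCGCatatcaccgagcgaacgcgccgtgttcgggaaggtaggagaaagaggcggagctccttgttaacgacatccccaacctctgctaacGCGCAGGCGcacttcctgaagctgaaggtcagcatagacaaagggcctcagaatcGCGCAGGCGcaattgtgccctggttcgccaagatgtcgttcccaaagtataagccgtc
UQCRFS1: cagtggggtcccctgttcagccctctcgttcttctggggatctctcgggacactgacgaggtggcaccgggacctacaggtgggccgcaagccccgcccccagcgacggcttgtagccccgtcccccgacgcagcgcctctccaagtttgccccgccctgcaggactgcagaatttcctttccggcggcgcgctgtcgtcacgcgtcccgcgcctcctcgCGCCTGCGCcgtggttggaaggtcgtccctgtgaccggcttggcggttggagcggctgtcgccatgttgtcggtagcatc
NDUFS1 is shown because it went against most other members between the lines. It encodes the largest core subunit of complex I, and RefSeq gives 2 overlapping windows for it. The one printed (chr2:206159395-206159694, minus strand) holds 1 ETS and GABPA motif, read here on the opposite strand, in capitals, and the other (chr2:206159160-206159459) holds 0.
NDUFS1: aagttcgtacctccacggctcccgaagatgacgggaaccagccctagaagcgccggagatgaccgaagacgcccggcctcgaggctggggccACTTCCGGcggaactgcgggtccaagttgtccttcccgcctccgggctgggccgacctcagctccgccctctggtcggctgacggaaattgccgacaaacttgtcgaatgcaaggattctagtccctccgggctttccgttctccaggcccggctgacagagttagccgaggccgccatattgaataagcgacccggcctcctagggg

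Summed over the 90 members, respiratory chain transcripts made up a small and variable share of each library, given here in CPM, the counts-per-million share of all normalized counts. RD libraries labelled knockout had 7662, 7876, 7209, 5692 and 3077 CPM, against 8604, 6654, 6254, 10520 and 7586 in RD controls. SJRH30 libraries labelled knockout had 8751, 7739, 8818, 5269 and 8987 CPM, against 9389, 9823, 4515, 9562 and 9914 in SJRH30 controls. The lowest library of each line was the shallow one, RD control 4 was the highest in RD, and both RD groups overlapped over most of their range. In SJRH30 every library labelled knockout lay below the 4 deep controls, and the shallow control lay below them all. The order of the complexes hardly varied: complexes I and V held the largest sums in all 20 libraries, and complex II, with 4 genes, the smallest.

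**Figure D1:**
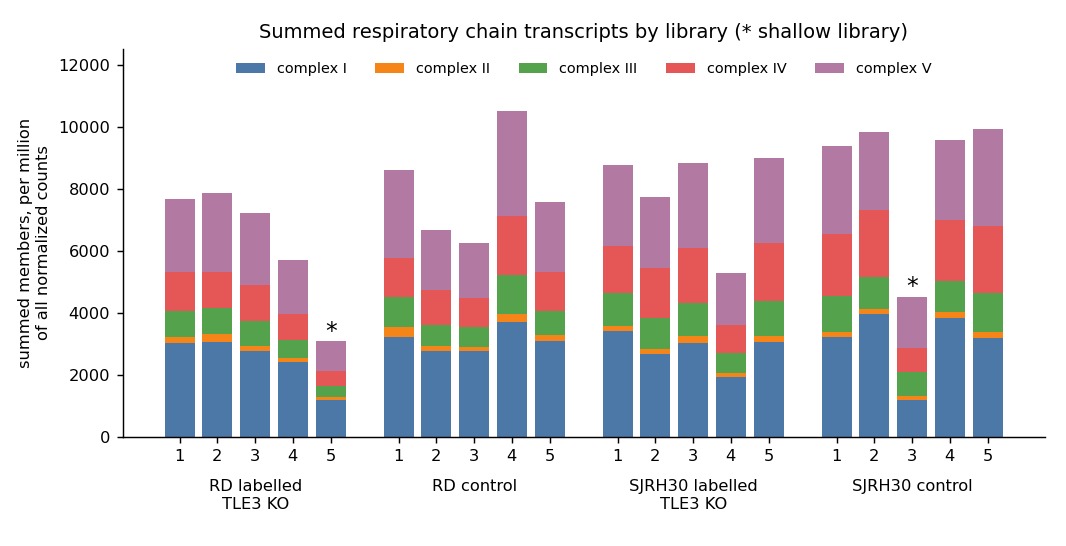
Summed normalized counts of the 90 members in CPM of all normalized counts, 1 bar a library, stacked by complex, with replicate numbers below and an asterisk on both shallow libraries. The shallow libraries are the lowest of their lines, at 3077 and 4515 CPM, SJRH30 labelled knockout 4 follows at 5269, and RD control 4 is the highest bar at 10520.

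For 85 members with a mean of at least 100, the highest and the lowest library was taken within each group, so groups were not compared. Within the RD libraries labelled knockout, the shallow library 5 had the lowest value for 56 members, and within RD controls, control 4 had the highest for 51. Within the SJRH30 libraries labelled knockout, library 4 was lowest for 50, and within SJRH30 controls, control 2 was highest for 51 and the shallow control 3 lowest for 75. These counts describe libraries, and the part of tumor composition or of RNA quality in them was not tested.

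In RD, no member passed the test between libraries labelled TLE3 knockout and controls. The counts were 0 higher and 0 lower of 90 with all libraries (limma, Benjamini-Hochberg adjusted p under 0.05 over all genes), where 0.0256% of all genes tested were called higher and 0.117% lower. Without the shallow library the counts were again 0 and 0, against 0.0865% and 0.246% of all genes, and the authors' deposited table calls 0 members higher and 0 lower, where it calls 0.161% and 0.333% of all genes. At an unadjusted p under 0.05 there were 4 members in either fit. The median log2 fold change of the members was -0.27, with 70 of 90 below 0, and it was -0.13 without the shallow library, where the median of all genes was -0.09 and 0.02.

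The core subunits that carry the redox centers of complex I had a median log2 fold change of -0.38 in RD with all libraries and -0.08 without the shallow one. The accessory subunits of complex I had -0.26 and -0.12, the complex III subunits -0.27 and -0.14, the general complex IV subunits -0.27 and -0.16, and the catalytic F1 part of ATP synthase -0.26 and -0.13. The restricted complex IV isoforms had the lowest median, -0.85 and -0.60. In each of these 6 roles the median lay closer to 0 without the shallow library.

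NDUFS8, a core iron-sulfur subunit of complex I (chromosome 11, 68030617 to 68036644), had the smallest p of the members in RD with all libraries; without the shallow library COX4I2 had it (-1.41 ± 0.43, adjusted p = 0.245). NDUFS8 had 803, 980, 823, 677 and 696 normalized counts in libraries labelled knockout, against 1199, 1122, 1162, 1366 and 1266 in controls. All 5 labelled knockouts lay below all 5 controls, and the log2 fold change was -0.63 ± 0.19 with an adjusted p of 0.326, which does not pass. Groups that did not overlap were found for 2 of the 90 members and for 1.93% of all genes. NDUFA4L2, a hypoxia-induced relative of the complex IV subunit NDUFA4, had 98, 152, 181, 103 and 109 normalized counts in labelled knockouts, against 248, 256, 158, 222 and 266 in controls. Only control 3 of its controls lay within the range of the labelled knockouts, and its log2 fold change was -0.85 ± 0.28 (adjusted p = 0.377). COX4I2 had 24, 51, 16, 26 and 39 normalized counts in labelled knockouts, against 147, 85, 41, 60 and 66 in controls, a log2 fold change of -1.30 ± 0.44 (adjusted p = 0.418). Its groups overlapped between 41 and 51, and it passed the test with libraries weighted by their spread (-1.57 ± 0.36, adjusted p = 0.0485). NDUFS7, UQCRC1, NDUFB8 and NDUFB7 followed, with log2 fold changes of -0.45, -0.52, -0.55 and -0.42 and adjusted p-values of 0.592 to 0.619.

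In SJRH30, the sign of the members' change turned on a single control library, and no member passed the test in either fit. The median log2 fold change between libraries labelled TLE3 knockout and controls was 0.14 with all libraries, with 54 of 90 above 0, and -0.41 without the shallow control 3, with 19 of 90 above 0. All genes had medians of 0.17 and 0.03. The counts were 0 higher and 0 lower with all libraries, where 0% of all genes were called higher and 0.00999% lower, and again 0 and 0 without the shallow library, where 0.196% and 0.29% were. At an unadjusted p under 0.05 there were 4 members with all libraries and 27 without the shallow control.

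Without the shallow control, the SJRH30 medians lay below 0 in every complex: -0.48 for complex I, -0.29 for complex II, -0.50 for complex III, -0.47 for complex IV and -0.33 for complex V. The core and accessory subunits of complex I had similar medians, -0.50 and -0.45. The restricted isoforms of complex IV stood apart from its general subunits, at 0.21 against -0.56. With all libraries these 5 complexes had medians of 0.16, 0.17, 0.21, -0.05 and 0.12.

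NDUFA8, an accessory subunit of complex I with disulfide-bonded cysteines, had the smallest p in SJRH30 without the shallow control. It had 1597, 1274, 2156, 524 and 1763 normalized counts in labelled knockouts, against 2626, 5163, 425, 3800 and 3014 in controls. Every labelled knockout lay below the 4 deep controls and above the shallow one, and the log2 fold change was -1.42 ± 0.36 (adjusted p = 0.0906). NDUFB4 (chromosome 3, 120596309 to 120602500), whose window with 3 NRF1 stretches is printed above, had 704, 1426, 1816, 465 and 1861 normalized counts in labelled knockouts, against 2375, 4089, 1079, 2959 and 2704 in controls. It gave a log2 fold change of -1.44 ± 0.38 (adjusted p = 0.0988), and it kept a negative value with all libraries, -1.15 (adjusted p = 0.54). COX6A1, the general form of a complex IV subunit, had 4358, 4039, 5704, 2444 and 5969 normalized counts in labelled knockouts, against 6668, 18358, 1536, 9897 and 7672 in controls (log2 fold change without the shallow control -1.19 ± 0.35, adjusted p = 0.112). ATP5MC1, a copy of the proton-carrying c-subunit of ATP synthase, and COX5B, a zinc-binding complex IV subunit, had log2 fold changes of -1.05 ± 0.32 (adjusted p = 0.12) and -1.36 ± 0.42 (adjusted p = 0.122). In all 5 the labelled knockouts did not overlap the deep controls, and in UQCR10, a small complex III subunit, they did (-1.19 ± 0.37, adjusted p = 0.126). Groups that did not overlap without the shallow control were found for 11 of the 90 members and for 5.39% of all genes.

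The authors' deposited table gives a different count for the same SJRH30 comparison: 13 of the 90 members lower at an adjusted p under 0.05 and 0 higher, where that table calls 3.58% of all genes lower and 3.01% higher. In the authors' deposited table the lowest adjusted p-values among the members are those of NDUFA8 (log2 fold change -1.32, adjusted p = 0.00837) and NDUFB10 (-0.997, adjusted p = 0.0133). NDUFB4, COX6A1, COX8A, COX5B, ATP5MC1, ATP5MF, ATP5MF-PTCD1, UQCR10, NDUFB7, NDUFS8 and NDUFA2 are the other 11 in the authors' deposited table. None of the 13 passed limma on the deposited values, with or without the shallow control.

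Without the shallow control 19 members had positive values in SJRH30, and they include 4 named here after their values were seen. COX7A2L, a factor that joins complexes III and IV into supercomplexes, had 7428, 6471, 6398, 12678 and 8172 normalized counts in labelled knockouts, against 5306, 4771, 1329, 3853 and 6006 in controls. All labelled knockouts lay above all controls, deep or shallow. The log2 fold change was 1.07 ± 0.44 with all libraries (limma adjusted p = 0.54) and 0.69 ± 0.29 without the shallow control (adjusted p = 0.211). With all libraries, groups that did not overlap were found for 1 of the 90 members and for 2.28% of all genes. NDUFS1 had 1992, 2187, 2027, 2970 and 2464 normalized counts in labelled knockouts, against 1824, 1436, 937, 1189 and 2241 in controls (0.66 ± 0.32 with all libraries, adjusted p = 0.599, and 0.50 without the shallow control), and control 5 lay within the range of the labelled knockouts. ATP5PB, a peripheral stalk subunit of ATP synthase, had log2 fold changes of 0.56 and 0.45 in these fits, and NDUFB1, an accessory complex I subunit, 0.85 and 0.53. In all 4 genes the highest of the 10 SJRH30 libraries was labelled knockout 4, the library in which 50 members were at their group's lowest value and mitochondrially encoded genes took 16.9% of the counts; the part of that library in these values was not tested.

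**Figure D2:**
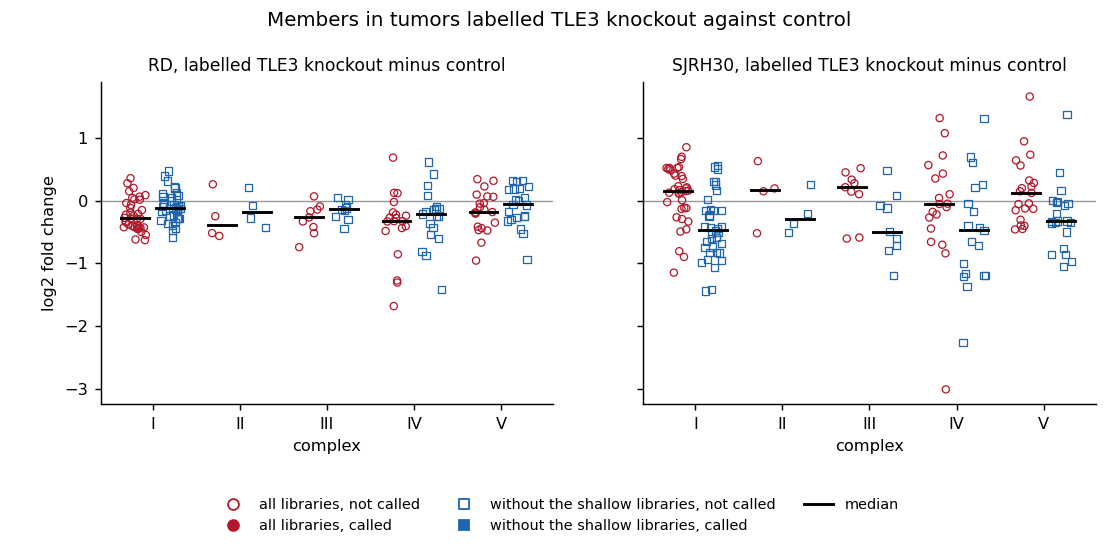
Log2 fold change of each member between libraries labelled TLE3 knockout and controls, by complex, in RD (left) and SJRH30 (right), with all libraries (circles) and without both shallow libraries (squares) and bars at the medians. All symbols are open because no member passed the test, and in SJRH30 the complex I median moves to -0.48 from 0.16 when the shallow control is left out.

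The effect labelled TLE3 knockout was not shown to differ between the lines for any member. The difference of the 2 effects, SJRH30 minus RD, gave 0 members higher and 0 lower with all libraries, where 0.00226% and 0.00677% of all genes were called, and 0 and 0 without the shallow pair, where 0.0836% and 0.113% were. At an unadjusted p under 0.05 there were 1 and 8 members. The median difference was 0.35 with all libraries and -0.27 without the shallow pair, against 0.28 and 0.05 for all genes. Without the shallow pair ATP5MF, an Fo subunit, had the smallest p, at -1.28 ± 0.40 (adjusted p = 0.244).

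Between the lines, SJRH30 tumors had higher values than RD tumors for many members, but the number depends on which libraries and which scaling are used. Among controls with all libraries, 4 of 90 members were called higher in SJRH30 and 2 lower, where 6.23% of all genes were called higher and 12.5% lower. Without the shallow pair 52 were higher and 3 lower, or 57.8% and 3.33% of the members, where 18.1% and 22.4% of all genes were. Among libraries labelled knockout, 10 members were higher in SJRH30 and 0 lower with all libraries (8.01% and 8.94% of all genes), and 31 were higher and 2 lower without the shallow pair (12.6% and 14.2%). The authors' deposited table calls 52 higher and 3 lower of the members among controls, where it calls 18.3% and 22.7% of all genes, and 32 and 3 among labelled knockouts, where it calls 13.2% and 15%. Of the members called without the shallow pair, 29 were called the same way in both comparisons, which is 29 of 55 among controls and 29 of 33 among labelled knockouts. Groups of the lines that did not overlap were also common among all genes. Among controls they were found for 1 of 90 members with all libraries and 40 without the shallow pair, and for 13.1% and 29.9% of all genes. Among labelled knockouts they were found for 23 and 24 members, and for 18.9% and 23.1% of all genes.

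Scaling moved these splits. Every SJRH30 library outside the shallow pair has a larger deposited total than every RD library outside it, and the median log2 fold change over all genes among controls was -0.36 on the deposited scale and -0.87 with all libraries brought to the same total. With equal totals, and still without the shallow pair, 20 members (22.2%) were higher and 9 (10%) lower in SJRH30 controls, where 9.85% and 37.5% of all genes were. Quantile normalization gave 19 (21.1%) and 5 (5.56%), where 17.6% and 16.2% of all genes were called, so that the higher share was near that of all genes. For labelled knockouts equal totals gave 10 higher (11.1%) and 8 lower (8.89%), against 7.13% and 24.4% of all genes. Quantile normalization gave 14 (15.6%) and 5 (5.56%), against 12.7% and 11.8%, again a higher share near that of all genes. Rescaling by the median of ratios left 53 and 3 among controls (18.9% and 21.6% of all genes) and 31 and 2 among labelled knockouts (13% and 13.9%). The members' median stood above that of all genes by 1.19, 1.06, 1.20 and 0.27 under the deposited values, equal totals, the median of ratios and quantile normalization among controls, and by 0.77, 0.69, 0.77 and 0.18 among labelled knockouts. No member was called in opposite directions under any pair of these scalings. Under all 4 scalings 18 members were higher in SJRH30 among controls, 10 among labelled knockouts, and 7 in both: COX7A1, ATP5MC1, COX6B1, COX7A2, UQCRQ, UQCRFS1 and NDUFB11.

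By role, without the shallow pair and on the deposited scale, the general subunits of complex IV were most often higher in SJRH30 controls, with 10 of 12 and a median log2 fold change of 1.49. Complex III followed with 7 of 9 (median 0.99), then the Fo and stalk subunits of ATP synthase with 9 of 14 (0.98) and the accessory subunits of complex I with 18 of 30 (0.80). The core subunits of complex I had 3 higher and 1 lower of 7, complex II had only SDHA of 4, and the F1 subunits of ATP synthase had 2 of 6. Among labelled knockouts the counts were 5 of 12 general complex IV subunits, 5 of 9 in complex III, 6 of 14 in Fo and stalk, 11 of 30 accessory and 0 of 7 core subunits of complex I. In these fits 18.1% of all genes were called higher and 22.4% lower among controls, and 12.6% and 14.2% among labelled knockouts. The complex II and F1 counts among controls rest on few genes and lie near the higher share. Counts by role under the other scalings are not given here, and differences between roles were not tested.

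ATP5MC1 (chromosome 17, 48892765 to 48895871) had the smallest adjusted p between control tumors of the lines without the shallow pair. It had 3223, 2654, 3763, 1878 and 4096 normalized counts in SJRH30 labelled knockouts, against 996, 1593, 892, 903 and 780 in RD labelled knockouts. SJRH30 controls had 4320, 9552, 196, 7587 and 4872, against 1690, 1192, 1023, 2038 and 998 in RD controls. The groups did not overlap among labelled knockouts, and among controls only the shallow SJRH30 control lay with or below RD. Its log2 fold change without the shallow pair was 2.23 ± 0.29 among controls (limma adjusted p = 1.78e-06) and 1.501 ± 0.29 among labelled knockouts (adjusted p = 0.000351), and over the 4 scalings it ranged from 1.57 to 2.27 and from 1.04 to 1.52. With all libraries ATP5MC1 was called in neither comparison. With 1 library left out it was called in 1 of 20 fits in each (limma adjusted p up to 0.437 among controls and 0.202 among labelled knockouts).

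UQCRFS1 (chromosome 19, 29205321 to 29213541), the Rieske protein whose NRF1 window is printed above, differed by about the same amount in both comparisons only without the shallow pair. It had 3855, 2844, 4030, 2749 and 4044 normalized counts in SJRH30 labelled knockouts, against 1834, 1241, 1395, 1051 and 962 in RD labelled knockouts. SJRH30 controls had 3361, 4066, 588, 2807 and 4594, against 1397, 1142, 1090, 2093 and 1586 in RD controls. Labelled knockouts of the 2 lines did not overlap, and the log2 fold change between them was 1.45 ± 0.41 with all libraries (adjusted p = 0.0158). Without the shallow pair it was 1.36 ± 0.24 among controls and 1.35 ± 0.24 among labelled knockouts. Among controls with all libraries UQCRFS1 was not called: 0 of 9 complex III members were, with log2 fold changes of at most 0.90. UQCRQ, a small complex III subunit that contacts cytochrome b, was higher in SJRH30 controls under all 4 scalings without the shallow pair (1.72 ± 0.29 on the deposited scale, adjusted p = 4.29e-05), and with all libraries it was not called (0.90 ± 0.58, adjusted p = 0.283).

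Within complex IV, COX6B1, a general subunit facing the intermembrane space, had 10502, 7244, 10260, 4905 and 11222 normalized counts in SJRH30 labelled knockouts, against 3371, 3654, 3152, 3125 and 2389 in RD labelled knockouts. In SJRH30 controls it had 10027, 20139, 828, 15338 and 11775, against 3179, 3019, 3499, 7026 and 3115 in RD controls. The deep libraries of the lines did not overlap in labelled knockouts or in controls, and the log2 fold changes without the shallow pair were 1.35 ± 0.29 (adjusted p = 0.000957) and 1.88 ± 0.29 (adjusted p = 1.53e-05). COX5B (1.95 ± 0.38 among controls, adjusted p = 0.000266), COX8A (1.93 ± 0.32, adjusted p = 4.28e-05) and COX7A2 (1.74 ± 0.36, adjusted p = 0.000497) were of similar size. COX4I1, the general form of the regulatory subunit COX4, had 9044, 5915, 9283, 5907 and 8433 normalized counts in SJRH30 labelled knockouts, against 6134, 5411, 6106, 5516 and 3637 in RD labelled knockouts, and these ranges overlapped.

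NDUFS1 (chromosome 2, 206114817 to 206159603) went the opposite way among controls. It had 1824, 1436, 937, 1189 and 2241 normalized counts in SJRH30 controls, against 2546, 2321, 2777, 2905 and 2409 in RD controls. Every SJRH30 control, also the shallow one, lay below every RD control. Among controls with all libraries 1 of 90 members and 13.1% of all genes had groups that did not overlap. NDUFS1 had a log2 fold change of -0.83 ± 0.25 with all libraries (limma adjusted p = 0.0234) and -0.67 ± 0.21 without the shallow pair (adjusted p = 0.0154). It was the only member lower in SJRH30 controls under all 4 scalings (-1.30 to -0.62), and with all libraries the adjusted p was 0.0507, 0.0529 and 0.0592 when RD control 3, RD control 4 or SJRH30 control 4 was left out. In labelled knockouts it was not called: 1992, 2187, 2027, 2970 and 2464 normalized counts in SJRH30 stood against 2375, 2369, 2709, 2852 and 2838 in RD. ATP5IF1, the peptide that inhibits ATP synthase when it runs in reverse (chromosome 1, 28236109 to 28246906), was higher in SJRH30 controls with all libraries. It had 2721, 4328, 1547, 3103 and 3108 normalized counts there, against 1071, 1683, 1488, 1370 and 1771 in RD controls (log2 fold change 0.95 ± 0.28, adjusted p = 0.0185), and only the shallow SJRH30 control lay within the RD range. That call was lost without RD control 1 (adjusted p = 0.0598), without SJRH30 control 2 (0.0556) and with equal totals (0.51 ± 0.28, adjusted p = 0.179).

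**Figure D3:**
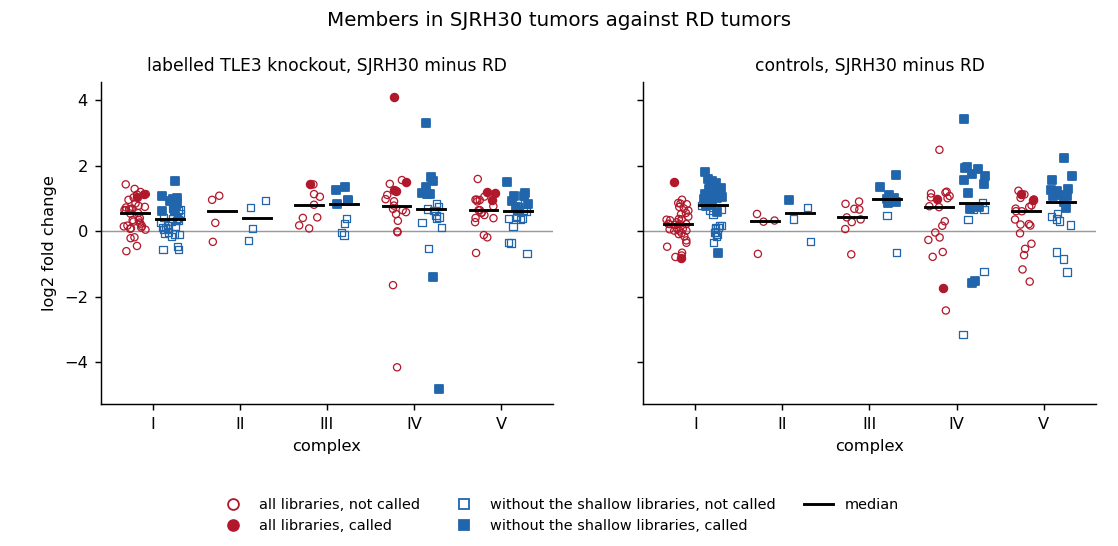
Log2 fold change of each member between SJRH30 and RD, by complex, among libraries labelled TLE3 knockout (left) and among controls (right), with all libraries (circles) and without both shallow libraries (squares), filled where limma's adjusted p was under 0.05 and with bars at the medians. Without the shallow libraries 31 members are filled above 0 and 2 below among labelled knockouts, and 52 above and 3 below among controls.

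Among the catalytic subunits, single libraries spread widely. SDHA, the flavoprotein of succinate dehydrogenase, had 2304, 1679, 2585, 1233 and 2162 normalized counts in SJRH30 labelled knockouts, against 1393, 1209, 1223, 920 and 513 in RD labelled knockouts, and these overlapped through SJRH30 labelled knockout 4. SDHB, its iron-sulfur subunit, had 1065, 2883, 1153, 939 and 849 in RD labelled knockouts, against 3671, 1112, 1059, 3189 and 1437 in RD controls. ATP5F1B, the catalytic beta subunit of ATP synthase, had 7327, 10226, 7592, 3686 and 3183 in RD labelled knockouts, against 14052, 6174, 4529, 17195 and 10031 in RD controls. For both SDHB and ATP5F1B the 3 highest RD libraries were labelled knockout 2, control 1 and control 4.

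These 3 libraries are also the RD libraries with the highest levels of skeletal muscle contractile genes. The mean log2(value + 1) of 22 contractile genes was 13.52 in labelled knockout 2, 13.96 in control 1 and 12.93 in control 4, it was 11.10 in control 5, and it lay between 7.01 and 8.83 in the other RD libraries. In SJRH30 it ranged from 7.22 to 9.13 in labelled knockouts and from 8.07 to 12.27 in controls. For 18 of the 90 members (20%) the 3 highest of the 10 RD libraries were exactly these, and for 582 of 18605 genes with a mean of at least 100 (3.13%). The 18 include the copies UQCRHL and ATP5EP2. UQCRHL had 1375 to 1961 normalized counts in these 3 libraries and 242 to 679 in the other RD libraries. ATP5EP2 had 501 to 909 and 34 to 136, so part of the high copy shares given above falls in these libraries. The contractile genes did not pass the test between labelled knockouts and controls in either line (0 of 22), and their part in the members' values was not tested.

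The muscle form COX6A2 (chromosome 16, 31427731 to 31428428) showed this most plainly. It had 64, 1682, 68, 21 and 10 normalized counts in RD labelled knockouts, against 1565, 10, 30, 1756 and 158 in RD controls. It had 0, 8, 3, 0 and 28 in SJRH30 labelled knockouts, against 12, 22, 251, 455 and 0 in SJRH30 controls. Its 3 highest values, 1565 to 1756, were in the 3 RD libraries rich in contractile transcripts, and within SJRH30 the highest value, 455, was in control 4, which has the highest contractile mean of that line. As a share of COX6A2 plus COX6A1, the muscle form made up 0.866% to 46.9% in RD labelled knockouts (median 1.69%), against 0.346% to 45.4% in RD controls (4.08%). The share was 0% to 0.467% in SJRH30 labelled knockouts, against 0% to 14.0% in SJRH30 controls. Its log2 fold change between labelled knockouts and controls was -1.27 ± 1.45 in RD (adjusted p = 0.821) and -3.00 ± 1.53 in SJRH30 (adjusted p = 0.623), and between SJRH30 and RD labelled knockouts it was -4.82 ± 1.54 without the shallow pair (adjusted p = 0.0218). That last call holds under all 4 scalings (-5.16 to -4.59), but with all libraries it was -4.15 with an adjusted p of 0.0841.

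COX7A1 (chromosome 19, 36150922 to 36152869), the other muscle form, behaved differently between the lines. It had 186, 136, 160, 105 and 236 normalized counts in SJRH30 labelled knockouts, against 10, 174, 2, 11 and 0 in RD labelled knockouts. SJRH30 controls had 227, 537, 11, 381 and 221, against 148, 5, 15, 134 and 11 in RD controls. All deep SJRH30 libraries thus had at least 105, whereas in RD only the 3 libraries rich in contractile transcripts exceeded 100. The log2 fold change between labelled knockouts was 4.10 ± 1.15 with all libraries (adjusted p = 0.0152, and 0.0546 when the shallow RD labelled knockout 5 alone was left out) and 3.30 without the shallow pair (adjusted p = 0.0066), and between controls it was 3.43 ± 0.88 without the shallow pair (adjusted p = 0.00339) and 2.48 with all libraries (adjusted p = 0.136). The authors' deposited table gives a smaller 1.72 between labelled knockouts, which is not called there (adjusted p = 0.141), and 2.39 between controls (adjusted p = 0.0181). RD labelled knockout 2, with 174, lay within the range of the SJRH30 labelled knockouts. As a share of COX7A1 plus COX7A2, it made up 2.05% to 6.54% in SJRH30 labelled knockouts, against 0% to 10.4% in RD labelled knockouts. COX7A2, the general form, had 5205, 6510, 5078, 1501 and 7199 normalized counts in SJRH30 labelled knockouts, against 2308, 1496, 1729, 1006 and 1673 in RD labelled knockouts, so that only labelled knockout 4 of SJRH30 lay in the RD range.

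**Figure D4:**
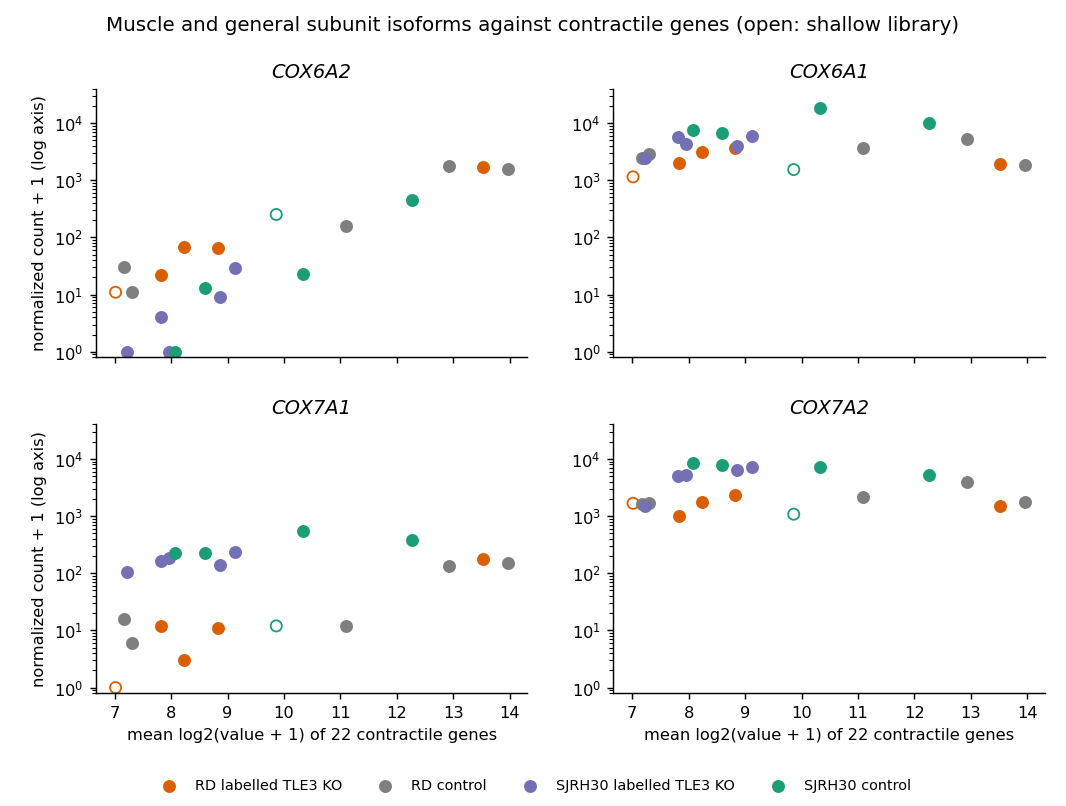
Normalized count + 1 (log axis) of the muscle forms COX6A2 and COX7A1 and of the general forms COX6A1 and COX7A2 against the mean log2(value + 1) of 22 contractile genes, 1 point a library, colored by group and open for both shallow libraries. COX6A2 has its 3 highest values (1565 to 1756) in the 3 RD libraries with contractile means of 12.93 to 13.96, whereas COX7A1 is at least 105 in every deep SJRH30 library.

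The other restricted isoforms were low. COX4I2 was lower in SJRH30 than in RD among controls (22, 50, 11, 26 and 13 normalized counts against 147, 85, 41, 60 and 66; log2 fold change -1.74 ± 0.49, adjusted p = 0.0155), and the ranges overlapped only through SJRH30 control 2. That call was lost without RD control 1 (-1.49, adjusted p = 0.0572) and under quantile normalization (-1.26, adjusted p = 0.0706). COX7B2 had 15, 45, 60, 71 and 28 in SJRH30 labelled knockouts, against 91, 148, 68, 116 and 252 in RD labelled knockouts, a log2 fold change of -1.38 ± 0.45 without the shallow pair (adjusted p = 0.0225) and of -1.64 with all libraries (adjusted p = 0.0924). Its highest value of all was 392, in the shallow SJRH30 control 3. COX6B2 had 66, 29, 39, 73 and 38 in SJRH30 labelled knockouts, against 11, 8, 15, 28 and 20 in RD labelled knockouts, which did not overlap (1.65 ± 0.44 without the shallow pair, adjusted p = 0.00609). With all libraries COX6B2 was not called, and with 1 library left out it was called in 1 of 20 fits (limma adjusted p up to 0.314). COX8C had 0 to 11 normalized counts in any library. COX4I2 made up 0.272% to 0.756% of COX4I2 plus COX4I1 in SJRH30 labelled knockouts and 0.261% to 1.06% in RD labelled knockouts, against 0.168% to 3.25% in SJRH30 controls and 0.653% to 2.73% in RD controls.

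GC content of the transcripts moved with the level of the members in part of the SJRH30 controls. For 85 members with a mean of at least 100, the deviation of a member in each library from its mean over the 5 libraries of the group was set against the GC content of its exons. That mean includes the shallow control 3, so the slopes in the other SJRH30 controls partly mirror the slope of control 3. Slopes against the deep controls alone are not given here. Across genes, which are not independent replicates, the rank correlation was 0.67 in SJRH30 control 2, 0.70 in control 4, -0.59 in the shallow control 3 and -0.48 in control 5, and all genes with a mean of at least 100 gave 0.73, 0.71, -0.59 and -0.34. The 22 members of at least 55% GC stood 1.53, 1.14 and -3.09 log2 units from their mean in controls 2, 4 and 3, whereas the 30 members under 45% GC stood at 0.27, 0.00 and -1.21. The members' exon GC content ranged from 35.0% to 65.9%, with a median of 47.9%, against 48.1% for all genes with a mean of at least 100. With a GC term removed in each library, a choice made after seeing the data, 46 members were higher and 4 lower in SJRH30 controls without the shallow pair, and 30 and 4 among labelled knockouts. The share of all genes called with that term removed is not given here, so these counts do not show whether the members exceed it. In the comparison of SJRH30 labelled knockouts with controls the same fit without the shallow control called 1 member, NDUFB4, as lower (-1.76 ± 0.41, limma adjusted p = 0.0493), and in RD it called none.

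**Figure D5:**
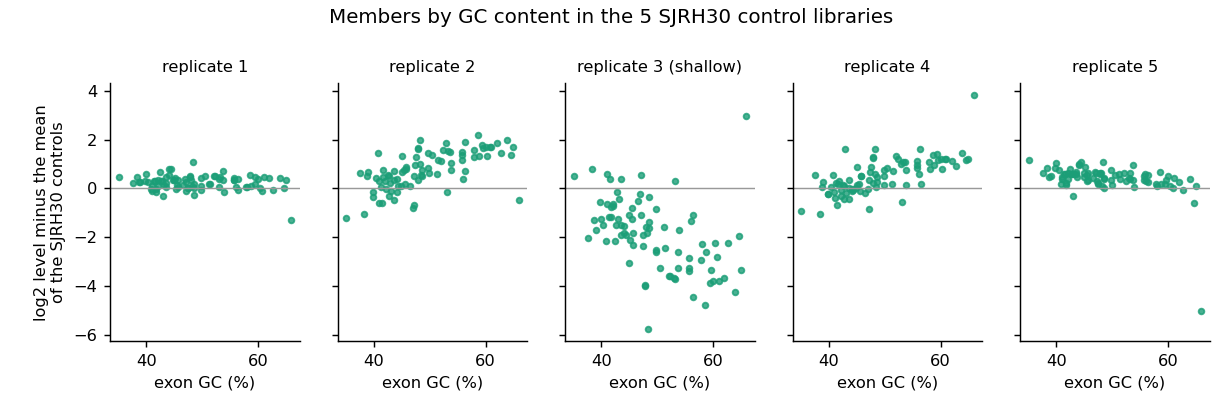
Deviation of each member's log2(value + 1) from its mean over the SJRH30 controls against the GC content of its exons (percent), 1 panel for each of the 5 SJRH30 controls, 1 point a member. Points slope upward in controls 2 and 4 (rank correlation 0.67 and 0.70) and downward in control 3 (-0.59), where the 22 members of at least 55% GC sit at a median of -3.09. The mean includes the shallow control 3, so slopes in the other panels partly mirror that library.

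The partners of these subunits were described from lists. The 13 subunits encoded by mitochondrial DNA had 0 called members in RD and SJRH30 between labelled knockouts and controls (limma, with and without the shallow pair). Their summed share ranged from 2.64% to 25.0% of a library in RD labelled knockouts, against 3.28% to 6.66% in RD controls, and from 1.47% to 13.4% in SJRH30 labelled knockouts, against 3.69% to 15.7% in SJRH30 controls. Their median log2 fold change in RD was 0.35 with all libraries and -0.31 without the shallow one, opposite in sign to each other. Between the lines MT-ND4L alone was called, higher in SJRH30 controls with all libraries (2.27 ± 0.69, adjusted p = 0.025) and, without the shallow pair, higher in SJRH30 labelled knockouts (1.85 ± 0.47, adjusted p = 0.0042) and controls (1.77 ± 0.47, adjusted p = 0.0042).

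Of 47 assembly factors, none was called between labelled knockouts and controls in either line. Between the lines without the shallow pair, 29 were higher and 2 lower in SJRH30 controls, and 19 and 2 in SJRH30 labelled knockouts. Of all genes 18.1% and 22.4% were called among controls and 12.6% and 14.2% among labelled knockouts in that fit, which also applies to both lists that follow. The largest differences were those of COX10, which makes heme for complex IV (3.60 ± 0.20 among controls and 3.29 ± 0.20 among labelled knockouts), and ATPAF2, a chaperone of the F1 part of ATP synthase (3.22 ± 0.25 and 2.88 ± 0.25). Of 16 enzymes of the TCA cycle and pyruvate entry, 3 were higher and 2 lower among controls, and 4 and 2 among labelled knockouts, so that the higher count among controls was near the share of all genes. PDHA1, a subunit of pyruvate dehydrogenase, was higher in both (1.89 ± 0.22 and 1.35 ± 0.22) and SUCLG2, of succinyl-CoA synthetase, lower in both (-1.59 ± 0.23 and -0.96 ± 0.23).

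Of 15 regulators of mitochondrial biogenesis, 0 were called between labelled knockouts and controls. Among controls of the 2 lines 8 were higher and 2 lower in SJRH30, and among labelled knockouts 7 and 1. PPARGC1A, a coactivator of mitochondrial genes in muscle, was lower in SJRH30 in both (-2.56 ± 0.36 and -1.80 ± 0.36), whereas its relatives PPRC1 (1.64 ± 0.24 and 1.38 ± 0.24) and PPARGC1B (0.76 ± 0.24 and 0.81 ± 0.24) were higher. GABPA, whose motif is marked in the NDUFS1 window, was higher in SJRH30 in both (1.02 ± 0.31 and 0.89 ± 0.31). TFAM, which packages and transcribes mitochondrial DNA, was not called in either (0.00 and 0.70). Of the 3 genes that the name rule leaves out, CYC1 and NDUFAB1 were higher in SJRH30 controls without the shallow pair (1.66 ± 0.41 and 0.73 ± 0.20), and CYCS was not called (0.61 ± 0.31).

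Markers of other cells were set beside these values. Of 13 macrophage markers 1 was lower in RD labelled knockouts with all libraries and 4 without the shallow one, where 0.117% and 0.246% of all genes were called lower. Their mean log2(value + 1) ranged from 6.63 to 7.38 in labelled knockouts, against 7.75 to 8.76 in controls. In SJRH30, 0 of 13 macrophage markers were called between labelled knockouts and controls. Fibroblast and pericyte markers were lower in SJRH30 than in RD for 7 of 10 among labelled knockouts and for 6 of 10 among controls without the shallow pair, with 1 of 10 higher in each. Of all genes 14.2% were lower and 12.6% higher among labelled knockouts in that fit, and 22.4% and 18.1% among controls. Of 9 endothelial markers, PECAM1 was called higher in SJRH30 labelled knockouts than in controls without the shallow control (1.80 ± 0.28, adjusted p = 0.0064). Among controls without the shallow pair, 0 of 9 were higher and 3 lower in SJRH30 than in RD, where 18.1% and 22.4% of all genes were. No erythroid marker was called in any comparison (0 of 7).

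Hypoxia markers differed between the lines in the same libraries. Of 13, 8 were higher and 1 lower in SJRH30 labelled knockouts than in RD labelled knockouts with all libraries, and 7 were higher and 2 lower in SJRH30 controls than in RD controls. Of all genes 8.01% were higher and 8.94% lower among labelled knockouts in that fit, and 6.23% and 12.5% among controls. These shares also apply to the rhabdomyosarcoma markers below. CA9, a carbonic anhydrase induced in hypoxia, had log2 fold changes of 4.51 ± 0.58 among labelled knockouts and 3.43 ± 0.58 among controls, and LDHA, which makes lactate from pyruvate, had 1.51 ± 0.42 and 2.13 ± 0.42. ANGPTL4 was lower in both (-1.79 ± 0.62 and -1.82 ± 0.62). No hypoxia marker was called between labelled knockouts and controls in either line (0 of 13). Of 8 rhabdomyosarcoma markers, 3 were higher and 1, PAX7, lower in SJRH30 in both comparisons of the lines with all libraries. The part of these cells and of hypoxia in the members' values was not tested.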

How the data were processed

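Poly(A)-selected RNA of 20 xenograft tumors was sequenced; the labels do not say whether the kit marks strand. The submitters' processing notes name FastQC, fastp 0.20.1, STAR 2.7, featureCounts, edgeR and build GRCh38.p7, and no removal of mouse reads; RNA came from 1 of 2 extraction kits, with the tumor not stated. The values used are a score, the authors' normalized counts per gene, rounded and deposited; they are not raw counts, so no count model was fitted, although the design had allowed for one where the unit permits. Deposited beside them, per the file headers, are the authors' mean signal, ratio (FC), log2 fold change and p-value for each of 4 comparisons. The significant-only tables were not used.

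Members and gene lists were chosen with earlier results of these data known. Values were tested as log2(value + 1) with limma 3.58.1 (R 4.3.3, mean-variance trend), for genes reaching 1 in 5 or more of the fitted libraries, two-sided, with Benjamini-Hochberg adjustment over all genes and a threshold of 0.05. The 1 added before the logarithm understates the change of low genes. Comparisons of labelled knockouts with controls used the 10 libraries of a line; comparisons of lines, and the difference of effects, used all 20 with 4 group means. The fit was tested on simulated data. What 1 read is worth was taken from the spacing of low values in both shallow libraries, at 4.93 and 10.9 units, and their depth limits low genes. Library weights in the authors' mean came from a regression over 18567 genes (0.0588 to 0.0656 in deep libraries, largest error 0.328%). Gene models were GENCODE 29 on GRCh38, promoters RefSeq. Named members are 12 fixed subunits, 7 isoform pairs, the 8 largest non-overlapping calls of a comparison, or the 6 smallest p-values where fewer than 4 members were called. COX7B and COX4I2 belong to the isoform pairs, but the values given for COX7B and for COX4I2 in RD were picked after being seen. Members outside the rule were also picked after their values were seen. Alternatives were pseudocount, filter, scaling, library weights, replicate block and each library left out; the GC fits and rescaling without the shallow pair were added after seeing the data.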

Additional observations from a re-analysis of the deposited data

Results flagged for a closer look

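In groups of 5 libraries, a library was listed where its gap to the nearest other exceeded 0.71 of the group's range. Chance lists about 1 in 20 groups, and 15 of 124 (12.1%) were listed. Of these, 3 concern summed levels in the shallow SJRH30 control 3: all members at 4515 CPM (the other controls 9389 to 9914), complex I at 1192 (3182 to 3950) and complex IV at 771 (1950 to 2151). Restricted isoforms stood out there as well, COX7B2 with 392 normalized counts (the others 12 to 36) and COX8C with 11 (0 to 2). COX8C was also high in SJRH30 labelled knockout 1, with 7 (the others 2 to 3), and COX6A2 in SJRH30 labelled knockout 5, with 28 (0 to 8).

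In RD labelled knockout 2, COX6A2 had 1682 normalized counts (the others 10 to 68), COX7A1 had 174 (0 to 11) and SDHB had 2883 (849 to 1153); this is 1 of the 3 RD libraries rich in contractile transcripts. In RD control 4, another of them, COX6B1 had 7026 (the others 3019 to 3499), COX7A2 had 3909 (1635 to 2157) and COX7B had 3665 (1100 to 1571). COX7B2 had 138 in RD control 1, the third of them (the others 55 to 72). COX4I1 had 3637 in the shallow RD labelled knockout 5 (the others 5411 to 6134).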

How the results depend on the processing

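Between labelled knockouts and controls, no member was called in either line under the alternatives, with these exceptions: 1 lower in RD with libraries weighted by their spread, and 1 lower in SJRH30 with GC correction and without the shallow pair. The SJRH30 median was -0.46 without the shallow pair and rescaled by the median of ratios; the median difference of effects was -0.27 without the shallow pair and -0.30 with that rescaling added. Members higher in SJRH30 controls than in RD controls numbered 52 without the shallow pair, 0 with equal totals, 8 with the median of ratios, 2 with quantile normalization, 51 with library weights, 19 with GC correction and 46 with GC correction without the shallow pair; members lower numbered 4 with equal totals, 4 with quantile normalization and 4 with GC correction without the shallow pair. Without the shallow pair, equal totals gave 20 higher and 9 lower, the median of ratios 53 higher, and quantile normalization 19 higher and 5 lower. For SJRH30 against RD labelled knockouts the counts were 31 higher and 2 lower without the shallow pair, 3 higher with equal totals, 4 higher with quantile normalization, 43 higher and 2 lower with library weights, 17 and 1 with GC correction, and 30 and 4 with GC correction without the shallow pair. Without the shallow pair, equal totals gave 8 lower, the median of ratios 31 higher and 2 lower, and quantile normalization 5 lower. The share of all genes is not given here for library weights, GC correction, the replicate block or the left-out libraries. It is also not given for the scalings with all libraries. Counts under those settings do not show whether the members exceed the share of all genes.

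Replicate numbers did not pair the libraries: same-number correlations were -0.63 to -0.31 in RD and -0.42 to 0.26 in SJRH30, with 0 and 1 of 5 above 0.1. A fit with the replicate block gave 2 higher and 1 lower among controls and 5 higher among labelled knockouts.

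With 1 library left out, 2 to 49 members were higher and 1 to 3 lower in SJRH30 controls. The 49 came without SJRH30 control 3, 7 without RD control 4, and 2 without RD control 1, 2 or 3 or SJRH30 control 2 or 5. Lower members numbered 1 without RD control 1, 3 or 4 or SJRH30 control 4. Among labelled knockouts 3 to 36 were higher and 0 to 2 lower, with 36 and 2 without SJRH30 control 3 (through the shared spread), 6, 5 and 3 without RD labelled knockout 2, 4 or 5, and 5 and 4 without SJRH30 labelled knockout 1 or 5. Values not called that turned sign were NDUFB5 in RD (-0.12 to 0.39 with 1 library left out, -0.11 with equal totals) and COX6A2 in RD (0.43 with library weights). In SJRH30, with 1 library left out, they were ATP5MC1 (-1.05 to 0.35), COX5B (-1.36 to 0.0154) and COX7A1 (-1.001 to 0.37), each lowest without control 3 and highest without control 2. The difference of effects for NDUFB2 was -0.73 to 0.36 with 1 library left out. It was -0.86 without the shallow pair, -0.13 with the median of ratios, -0.00893 with quantile normalization, -0.59 with library weights, -0.21 with GC correction and -0.94 with GC correction without the shallow pair. Without the shallow pair it was -0.69 with equal totals, -0.89 with the median of ratios and -0.57 with quantile normalization. The cause of these moves was not tested. Depth limits low members, among them the restricted isoforms, since 10.9 normalized counts are 1 read in SJRH30 control 3.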
